A study of Mus musculus with 44 samples.

Results

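The genes described here are 10 mouse genes of iron uptake, storage, export and hormonal control: Tfrc, Slc11a2, Cybrd1, Fth1, Ftl1, Slc40a1, Heph, Hamp, Hamp2 and Hmox1. They were chosen by name, for their known roles and with earlier results of these data known, from 31484 gene names in a table of estimated transcript counts. All 10 were among the 14901 genes with enough counts to be tested. The libraries were made from the gastric corpus of 13 months old BalbC mice. WT/PEG (11 libraries) and WT/NTZ (9 libraries) came from wild-type mice, and KO/PEG (13 libraries) and KO/NTZ (11 libraries) from mice homozygous for a constitutive knockout of Atp4b, which encodes the beta subunit of the H+/K+ATPase, the proton pump of the parietal cell, so that these stomachs make no acid. All mice were female and received injections from young age until they were killed, either of netazepide (NTZ, labelled yf), an antagonist of the gastrin/CCKB receptor, or of the vehicle PEG alone, which both vehicle groups and both NTZ groups therefore share.

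Gastric acid keeps dietary ferric iron in solution before it is reduced and taken up in the duodenum, and a stomach without acid is a known setting for iron deficiency. Inside cells, transferrin receptor brings in iron bound to transferrin, ferritin stores what is not used, and ferroportin lets it out. Hepcidin, a hormone made mainly by the liver and also reported in parietal cells of the stomach, removes ferroportin from the cell surface. Iron regulatory proteins bind hairpins in several of these mRNAs, the iron-responsive elements, where they protect the transferrin receptor mRNA and block translation of ferritin and ferroportin mRNA when iron is scarce.

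In the GENCODE annotation of GRCm38, Tfrc (ENSMUSG00000022797) lies at chr16:32608920-32632794 on the plus strand, Slc11a2 (ENSMUSG00000023030) at chr15:100387898-100425072 on the minus strand and Cybrd1 (ENSMUSG00000027015) at chr2:71117923-71142926 on the plus strand. The ferritin genes are Fth1 (ENSMUSG00000024661, chr19:9982646-9985098, plus strand) and Ftl1 (ENSMUSG00000050708, chr7:45457944-45459884, minus strand). Slc40a1 (ENSMUSG00000025993) lies at chr1:45908068-45926523 on the minus strand and Heph (ENSMUSG00000031209) at chrX:96455359-96574485 on the plus strand. Hamp (ENSMUSG00000050440, chr7:30942368-30944032) and Hamp2 (ENSMUSG00000056978, chr7:30922389-30924181) are both on the minus strand, and Hmox1 (ENSMUSG00000005413) lies at chr8:75093621-75100589 on the plus strand. The values are sums over all transcripts of a gene, of which the table holds 8 each for Slc11a2 and Slc40a1, 6 for Tfrc, 5 for Heph, 2 for Hmox1 and 1 for each of the others.

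The hairpins are shown because this post-transcriptional control acts through them. A search of the transcripts looked for an unpaired C, 5 bases, the loop CAGTGN and 5 bases pairing with the first 5 (G with T allowed). It found such an element in 4 of the 10 iron genes (40%) and in 209 of the 14901 genes tested (1.4%). Only this strict form was searched, so a gene without a match may still carry an element. The sequences below are 27 bases long, from the GRCm38 transcripts, 5′ to 3′, with the 6 bases of the loop in capitals. The first 4 lie in the 3′ UTR of Tfrc (ENSMUST00000023486), the others in the 5′ UTR of Fth1, Ftl1 and Slc40a1.
Tfrc, chr16:32631220-32631246, plus strand: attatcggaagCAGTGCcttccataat
Tfrc, chr16:32631599-32631625, plus strand: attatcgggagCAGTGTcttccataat
Tfrc, chr16:32631664-32631690, plus strand: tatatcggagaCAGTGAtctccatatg
Tfrc, chr16:32631711-32631737, plus strand: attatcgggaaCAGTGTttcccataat
Fth1, chr19:9982733-9982759, plus strand: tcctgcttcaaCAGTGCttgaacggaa
Ftl1, chr7:45459780-45459806, minus strand: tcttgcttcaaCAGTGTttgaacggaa
Slc40a1, chr1:45925466-45925492, minus strand: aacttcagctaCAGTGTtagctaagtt

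Hamp and Hamp2 are neighbouring copies on chromosome 7, and they moved in opposite directions in KO mice, so their promoters are shown side by side. The 150 bases before each start site are from RefSeq (GRCm38.p6), on the minus strand of chr7:30944030-30944179 for Hamp and chr7:30924182-30924331 for Hamp2. Capitals mark, in order, a GATA site on the other strand (AGATAA), the core GGCGCC of the BMP response element where it is present, and a STAT site (TTCNNNGAA).
Hamp: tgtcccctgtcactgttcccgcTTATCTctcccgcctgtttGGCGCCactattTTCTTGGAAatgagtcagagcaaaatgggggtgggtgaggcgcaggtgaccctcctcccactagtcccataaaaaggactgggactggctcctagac
Hamp2: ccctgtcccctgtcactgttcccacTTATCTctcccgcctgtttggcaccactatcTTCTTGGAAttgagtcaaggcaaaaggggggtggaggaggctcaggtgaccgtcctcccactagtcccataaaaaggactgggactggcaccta
Of the aligned bases 91.8% were identical. Within the 6 bases of GGCGCC there was 1 substitution, G4A, counted from 1 at the first base of the motif in Hamp. BMP signalling is the main known stimulus of hepcidin transcription in liver, and STAT3 carries the response to interleukin 6. Searched on both strands from 250 bases before the start to 50 after it, GGCGCC was found in 11.9% of 32851 mouse promoters, TTCNNNGAA in 8.3% and AGATAA in 11.2%. Promoters were at hand for 6 of the 10 iron genes, and among these GGCGCC was also found in Cybrd1 and Tfrc, whereas ACGTG, the core of the hypoxia response element, was found in Tfrc alone (19.6% of all promoters) and TGANNNNGC, the core of the antioxidant response element, in Cybrd1 alone (41.3% of all promoters). These matches describe the letters in the windows and were not measured as bound sites.

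The total estimated count ranged from 6065084 to 21945124 per library (median 12282802). Atp4b averaged 3923 CPM (counts scaled to the library size after TMM normalization) in WT/PEG and 6.84 CPM in KO/PEG, and no KO library reached the level of a WT library. Of the parietal cell markers, 10 of 11 were lower in KO/PEG than in WT/PEG. Of 5 chief cell markers 4 were lower and 1 was higher, while 7 of 11 macrophage and 5 of 5 red cell markers were higher. Among all genes tested 37.5% were higher and 37.2% lower in KO/PEG (adjusted p below 0.05). Hbb-bs, a hemoglobin chain, reached 1859 and 1570 CPM in the KO/PEG libraries KO_46 and KO_52, against at most 164 CPM in WT libraries and 406 CPM in the other KO libraries. A length index, the mean over 10573 genes of the log2 length of the annotated transcripts that the counts were assigned to, was lower than in every WT library in 6 of 13 KO/PEG and 7 of 11 KO/NTZ libraries, and is given below where a gene moves with it. The library titles carry a number after the genotype, and libraries are named here by both (KO_46). The same number stands on 2 WT/PEG libraries, and another on a library of KO/PEG and one of KO/NTZ. Numbers of 100 or above belonged to all 11 WT/PEG, 7 KO/PEG, 4 WT/NTZ and 1 KO/NTZ libraries, so that KO/NTZ and WT/PEG differ in this respect too. In whole tissue, fewer cells of a type and less RNA per cell cannot be told apart.

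**Figure D1:**
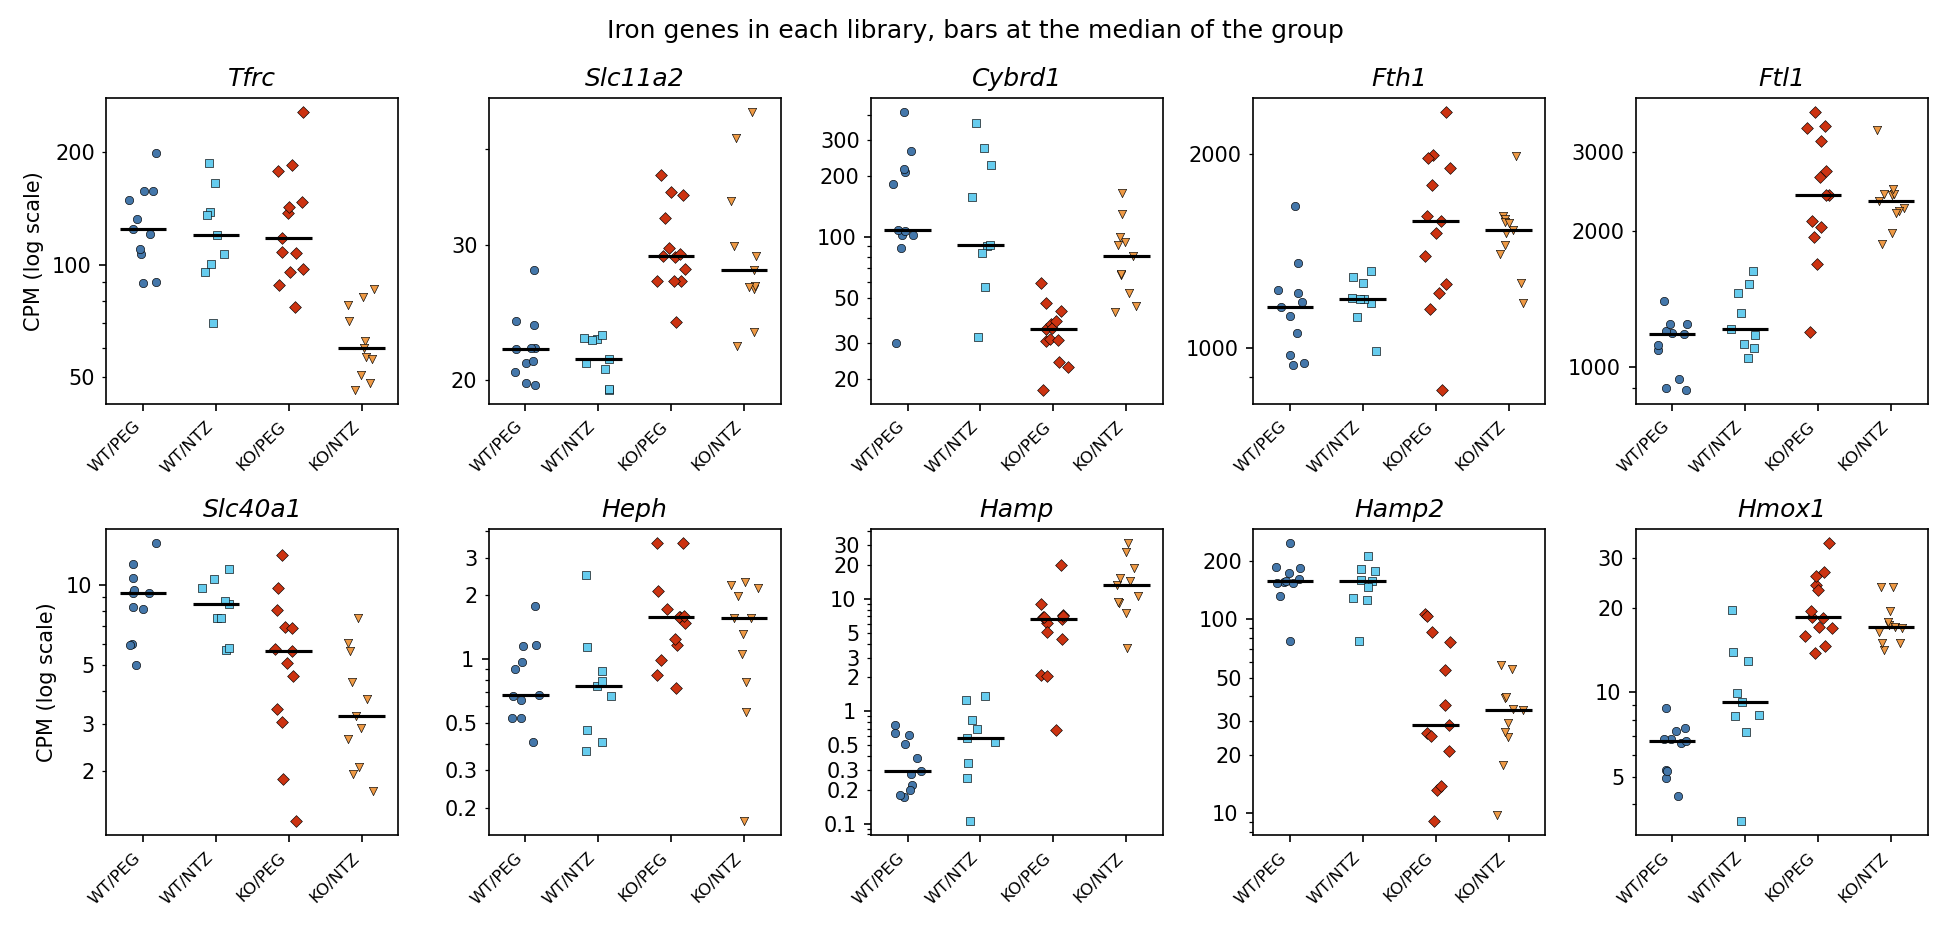
Levels of the 10 iron genes in each of the 44 libraries, as CPM on a log scale, by group, with 1 point for each library and bars at the group medians. Hamp sits higher in 23 of 24 KO libraries than in any WT library, Hamp2 lower in 21 of 24, and Tfrc is low in KO/NTZ.

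Levels can be compared between genes only per length of transcript, and on that scale (counts per base of transcript, scaled to the same sum in every library) the 10 genes spanned several orders of magnitude. In WT/PEG mice ferritin led, with Fth1 at 1387 ± 171.8 (SD, n = 11) and Ftl1 at 1293 ± 152, levels whose ranges overlapped. Hamp2 followed at 422 ± 75.5, with no library overlapping either ferritin gene. Cybrd1 (36.2 ± 27.5) and Tfrc (33.6 ± 7.90) overlapped, as did Hmox1 (4.58 ± 0.972) and Slc40a1 (3.55 ± 1.39), with Slc11a2 (9.86 ± 1.23) between these pairs, overlapping with Cybrd1. Hamp (1.04 ± 0.549) and Heph (0.215 ± 0.124) were at the bottom of the order, and the ranges of Slc40a1, Hamp and Heph each met that of the next. In KO/PEG mice Ftl1 led Fth1, and Hamp had moved from the ninth to the fifth place, at 19.1 ± 12.7 (SD, n = 13), overlapping with Hmox1 (16.8 ± 4.35), Slc11a2 (11.96 ± 2.39) and Cybrd1 (8.73 ± 4.16).

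The first comparison, KO/PEG versus WT/PEG, asks what the loss of the proton pump does to these genes. Fth1, Ftl1, Hamp, Heph, Hmox1 and Slc11a2 were higher in KO/PEG and Cybrd1, Hamp2 and Slc40a1 were lower, 9 of 10 in all. Since 74.6% of all genes tested passed the same test (edgeR quasi-likelihood, Benjamini-Hochberg adjusted p below 0.05), 37.5% higher and 37.2% lower, the count of iron genes that passed is close to this background, and the sizes describe them better. The sizes ran from 4.05 for Hamp to -2.25 for Cybrd1 on the log2 scale. Hmox1 was the only iron gene without overlap between the groups, a property of 14.3% of all genes.

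**Figure D2:**
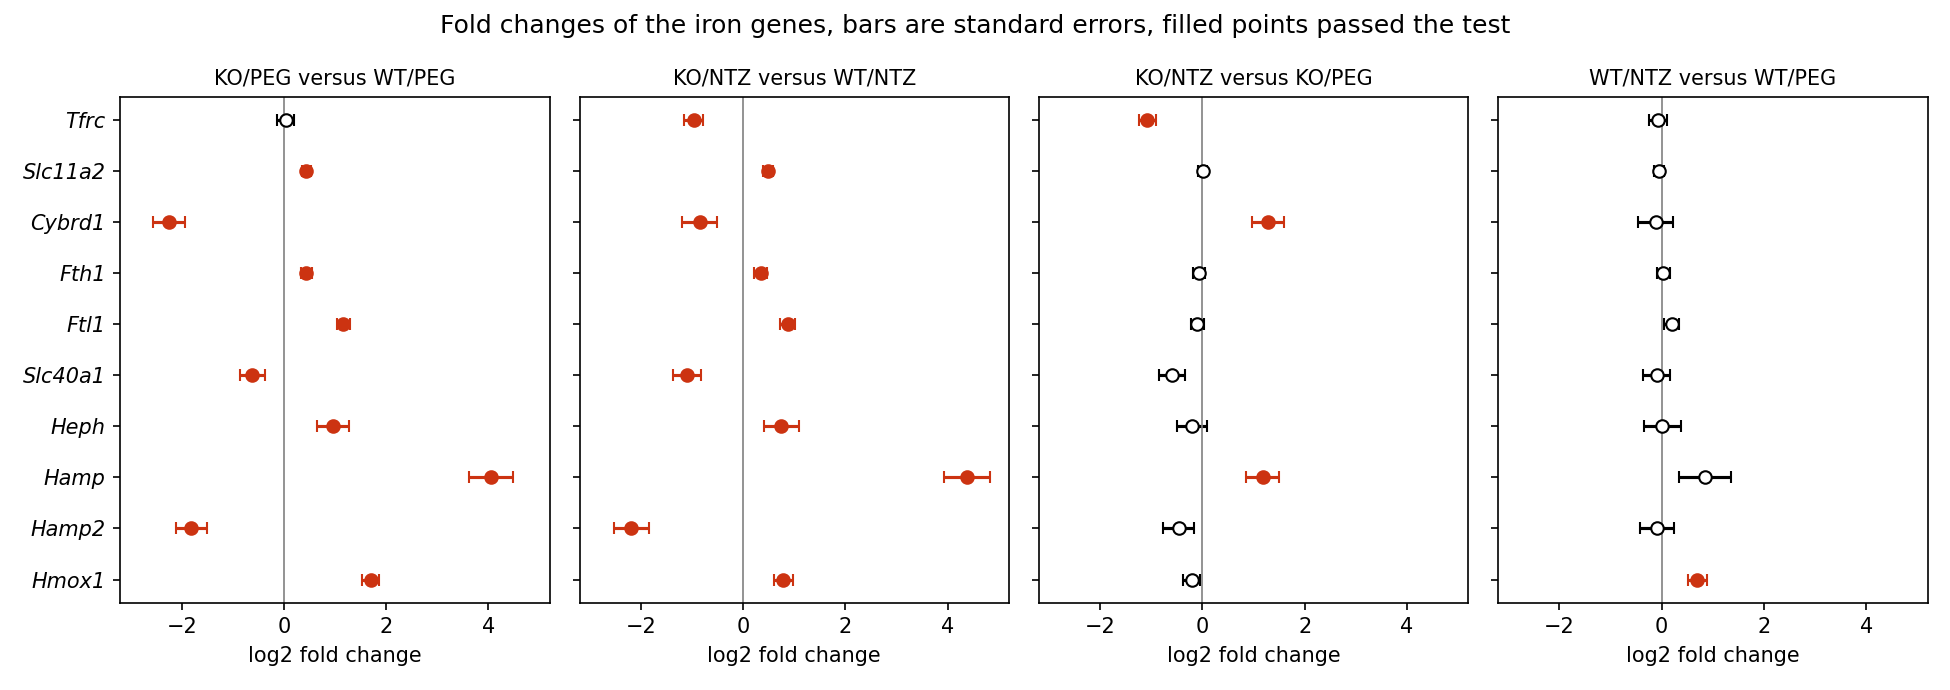
Log2 fold changes of the 10 iron genes in 4 comparisons, with standard errors as bars and filled points for an adjusted p below 0.05. Between genotypes 9 genes passed at PEG and 10 at NTZ (beside 74.6% and 72.4% of all genes), and between NTZ and PEG 3 passed in KO mice and 1 in WT mice (beside 5.56% and 1.03%).

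Of the hormone genes, Hamp encodes hepcidin and Hamp2 its mouse duplicate, for which the iron-regulating activity of hepcidin has not been found. Hamp ran from 0.172 to 0.757 CPM in WT/PEG (median 0.296) and from 0.686 to 19.9 CPM in KO/PEG (median 6.66). The KO/PEG libraries stood above the WT/PEG range apart from the lowest one. Hamp was 4.05 ± 0.43 (SE) higher on the log2 scale in KO/PEG (adjusted p = 9.4e-11), or 16.6-fold. WT libraries held very few reads of Hamp, so the WT level is imprecise: 6 of 11 WT/PEG and 3 of 9 WT/NTZ libraries had 3 estimated counts or fewer. Every KO library had 10.2 or more. Counts in WT/NTZ reached 22.5, above the lowest KO count. The highest WT/PEG count was 7.20 and the WT/NTZ median 6.21, under the minimum count of 10 of the filter on low counts. Hamp therefore entered the test through its KO libraries. Leaving out the KO libraries with a low length index gave a log2 fold change of 3.61, and the 7 KO/PEG libraries numbered 100 or above against WT/PEG gave 4.43.

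Hamp2 showed the opposite difference. It ran from 77.1 to 247 CPM in WT/PEG (median 158) and from 9.03 to 106 CPM in KO/PEG (median 28.3). Most KO/PEG libraries were under the WT/PEG range, and the highest ones reached into it. Hamp2 was lower in KO/PEG by a log2 fold change of -1.81 ± 0.30 (adjusted p = 1.6e-06), and WT/PEG had 3.52 times its level. After the group means were removed, Hamp2 varied over the 44 libraries with the summed chief cell markers (r = 0.87), the summed parietal cell markers (r = 0.74) and the liver list (r = 0.77). The liver list owed its level to Apoa1 and Ttr, while Alb averaged 2.09 CPM in WT/PEG and Fga and Fgb were close to 0 (0.00959 and 0.0123 CPM). The summed chief cell markers ran from 96165 to 242329 CPM in WT/PEG and from 2526 to 50688 CPM in KO/PEG, without overlap, and the summed parietal cell markers from 11613 to 18605 and from 2615 to 8835 CPM. The part of these cells in the fall of Hamp2 was not tested.

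The 2 hormone genes share sequence, which could let reads pass from one to the other: 33.7% of the 31-base words of Hamp also occur in Hamp2, and 32.8% of those of Hamp2 in Hamp. In WT/PEG, where Hamp2 was abundant, Hamp took only 0.251% ± 0.150 (SD, n = 11) of the counts of both. The share was 14.2% ± 7.66 in KO/PEG (n = 13), and in none of the 13 did it come down to the WT/PEG range. The adjusted p was 4.8e-05 in a 2-sided permutation test with 100000 resamples, adjusted over 12 tests (2e-05 before adjustment, the smallest these resamples can give). The share in KO/NTZ was 30.8% ± 12.1 (n = 11), higher than in KO/PEG (adjusted p = 0.0015, permutation test), with 8 of 11 libraries above every KO/PEG library. WT/NTZ, at 0.512% ± 0.498 (n = 9), did not differ detectably from WT/PEG (adjusted p = 0.12, exact permutation test).

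**Figure D3:**
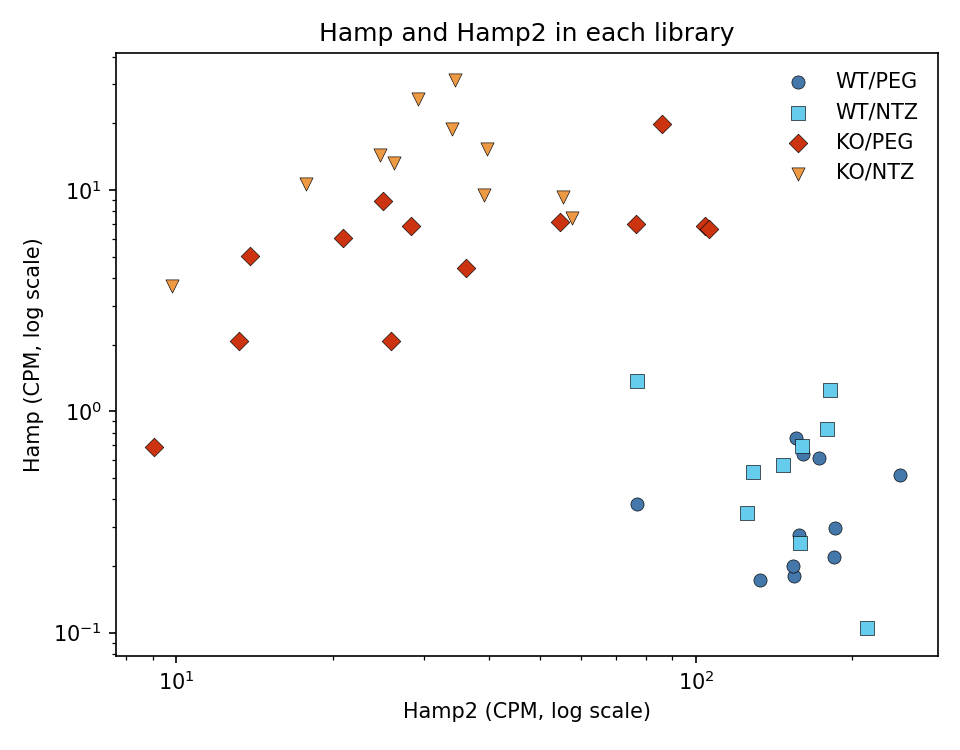
Level of Hamp against that of Hamp2 in each of the 44 libraries, both as CPM on log axes, with symbols for the 4 groups. The KO libraries lie toward more Hamp and less Hamp2, and the highest Hamp values are in KO/NTZ.

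Ferritin, the iron store, is built of a heavy chain (Fth1) that oxidizes iron and a light chain (Ftl1) that helps to lay it down as mineral. Ftl1 ran from 888 to 1403 CPM in WT/PEG (median 1182) and from 1193 to 3679 CPM in KO/PEG (median 2407). A single KO/PEG library lay within the WT/PEG range. Ftl1 was higher in KO/PEG by 1.16 ± 0.13 on the log2 scale (adjusted p = 3.9e-10), or 2.24-fold, and the mRNA of the light chain changed more than that of the heavy chain. Fth1 ran from 939 to 1657 CPM in WT/PEG (median 1155) and from 858 to 2324 CPM in KO/PEG (median 1574). The groups overlapped widely. Fth1 was 0.44 ± 0.11 higher in KO/PEG (adjusted p = 0.00074), a difference that was 0.16 with an adjusted p of 0.17 when the KO libraries with a low length index were left out. Fth1 was also the iron gene that moved most closely with that index (r = -0.69 over 44 libraries, group means removed).

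The balance of the mRNAs of the chains differed as well, while the chains as protein were not measured. The per-length level of Ftl1 over that of Fth1 was 0.943 ± 0.138 in WT/PEG (n = 11) and 1.54 ± 0.300 in KO/PEG (n = 13). None of the 13 KO/PEG values came down to the WT/PEG range (adjusted p = 4.8e-05, permutation test). KO/NTZ had a ratio of 1.53 ± 0.310 (n = 11), which did not differ detectably from KO/PEG (adjusted p = 0.91). With NTZ in both genotypes the ratio was also higher in KO mice, by 0.483 (adjusted p = 0.0011, exact permutation test). Both chains have processed pseudogenes that share sequence, 2 for Fth1 and 12 for Ftl1, and 48.8% of the 31-base words of Ftl1 occur elsewhere, so reads could be split. The pseudogenes together held at most 0.140% of the count of Ftl1 and 0.0367% of that of Fth1 in any library.

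Iron leaves cells through ferroportin (Slc40a1), and hephaestin (Heph) oxidizes it on the way out. Slc40a1 ran from 4.99 to 14.3 CPM in WT/PEG (median 9.34) and from 1.29 to 12.9 CPM in KO/PEG (median 5.67). The ranges overlapped over most of their width. Slc40a1 was lower in KO/PEG (log2 fold change -0.62 ± 0.25, adjusted p = 0.023). Without the WT/PEG library WT121 the adjusted p was 0.055, and with the length index as a covariate the log2 fold change was -0.26 (adjusted p = 0.27). Slc40a1 moved with the index at r = 0.68. Heph was scarce in every group, from 0.408 to 1.78 CPM in WT/PEG (median 0.683) and from 0.736 to 3.52 CPM in KO/PEG (median 1.58). Like Hamp, it had enough counts to be tested only with the KO libraries. Heph was 0.96 ± 0.31 higher in KO/PEG (adjusted p = 0.0049), with overlapping groups, and its most abundant transcript alone did not pass (log2 fold change 0.56, adjusted p = 0.37).

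Of the uptake genes, Cybrd1, a ferric reductase of the cell surface best known from the duodenum, differed most. It varied widely among WT/PEG libraries, from 30.1 to 413 CPM (median 108.6), and ran from 17.6 to 59.4 CPM in KO/PEG (median 35.2). The WT/PEG libraries stood above the KO/PEG range apart from the lowest one. Cybrd1 was lower in KO/PEG (log2 fold change -2.25 ± 0.32, adjusted p = 7.1e-08), and WT/PEG had 4.76 times its level. Slc11a2 encodes DMT1, the transporter that carries ferrous iron across membranes. It ran from 19.7 to 27.8 CPM in WT/PEG (median 21.95) and from 23.8 to 36.97 CPM in KO/PEG (median 28.97). The difference was small beside that of Cybrd1, 0.43 ± 0.09 on the log2 scale (adjusted p = 2.8e-05), and with counts corrected for the length of the transcripts of each gene it was 0.05 (adjusted p = 0.67).

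Tfrc, the transferrin receptor, was the iron gene that did not pass. It ran from 89.3 to 199 CPM in WT/PEG (median 124) and from 77.1 to 255 CPM in KO/PEG (median 117.9), with a log2 fold change of 0.03 ± 0.16 (adjusted p = 0.86). This sum hides a shift between its transcripts. The coding transcript ENSMUST00000023486 (4890 bases) averaged 89.1 ± 22.7 CPM in WT/PEG and 27.9 ± 27.9 CPM in KO/PEG, lower by a log2 fold change of -1.66 ± 0.45 (adjusted p = 0.0020). ENSMUST00000128285 (3527 bases), annotated as a retained intron (chr16:32624442-32632790) and covering the 3′ end with the same 4 iron-responsive elements, averaged 41.0 CPM (27.5 to 68.5) in WT/PEG and 105 CPM (73.2 to 151) in KO/PEG, higher by 1.36 ± 0.15 (adjusted p = 5.3e-10). Of single transcripts 53.2% passed in this comparison. The coding transcript took 68.3% ± 5.81 of the Tfrc count in WT/PEG and 17.6% ± 12.9 in KO/PEG, and all 13 KO/PEG libraries were below every WT/PEG library (adjusted p = 4.8e-05, permutation test). The share also varied with the length index (r = 0.54 over 44 libraries, group means removed), and the part of read placement along the transcript in this shift was not tested. The per-length level of Tfrc was 33.6 ± 7.90 in WT/PEG and 48.7 ± 25.7 in KO/PEG. The second transcript is shorter, and its part in this difference was not tested.

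**Figure D4:**
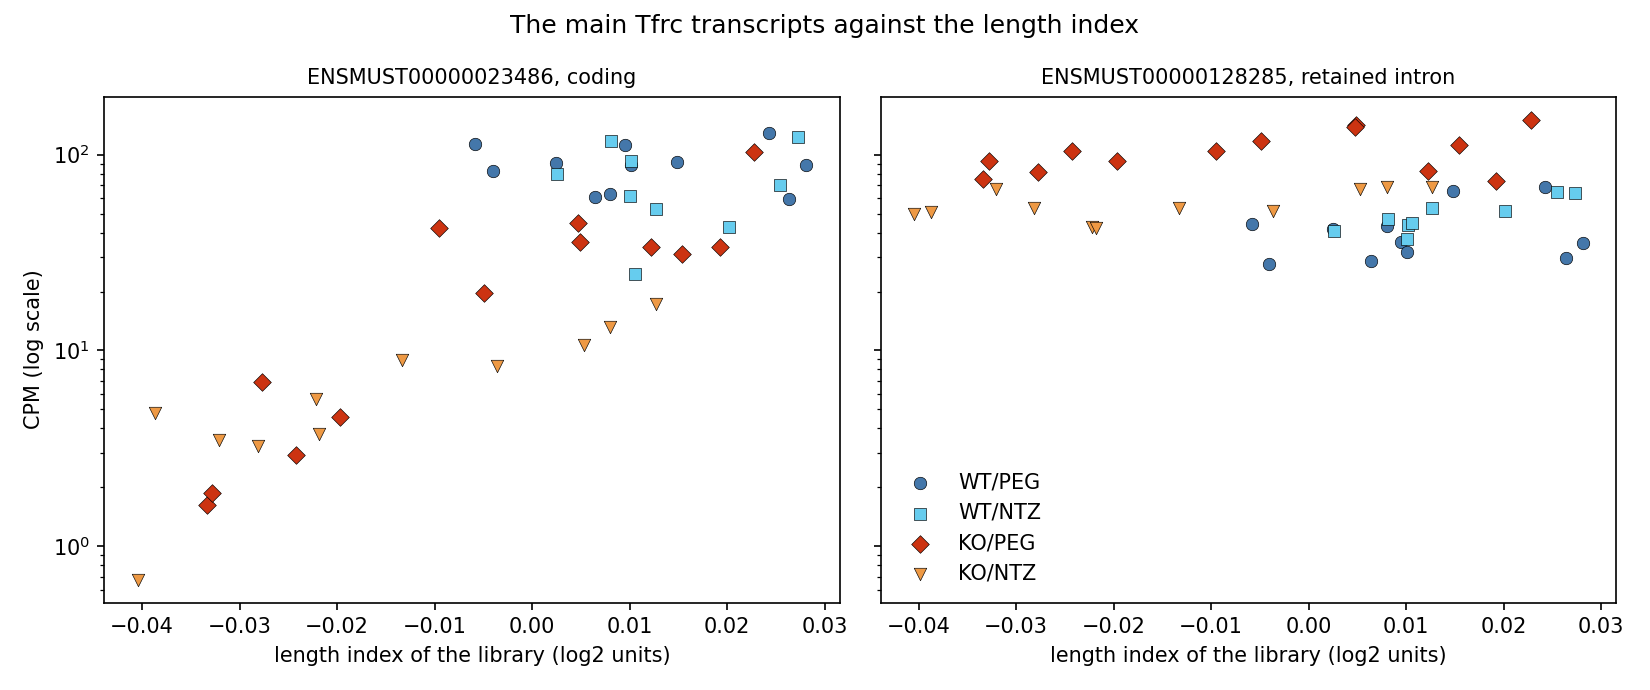
CPM (log scale) of the coding transcript ENSMUST00000023486 and of ENSMUST00000128285, annotated as a retained intron, of Tfrc against the length index of each of the 44 libraries (log2 units), with symbols for the 4 groups. The coding transcript is lowest in the KO libraries of lowest index, and the retained-intron transcript lies higher in KO/PEG than in the other groups over the whole range of the index.

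Hmox1 encodes heme oxygenase, which releases iron from heme and is abundant in macrophages that clear red cells. It ran from 4.27 to 8.83 CPM in WT/PEG (median 6.70) and from 13.8 to 33.9 CPM in KO/PEG (median 18.6). The groups did not overlap. Hmox1 was 1.69 ± 0.17 higher on the log2 scale (adjusted p = 3.7e-11), or 3.24-fold. The summed macrophage markers ran from 107 to 256 CPM in WT/PEG and from 179 to 407 CPM in KO/PEG, and the summed red cell markers from 62.8 to 332 and from 128.4 to 4116 CPM, and their part in the difference was not tested. Without the 2 KO/PEG libraries highest in Hbb-bs the difference of Hmox1 was 1.74 (adjusted p = 5.4e-11). Over the 44 libraries, with group means removed, Hmox1 varied with the macrophage markers at r = 0.44.

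With NTZ in both genotypes, KO/NTZ versus WT/NTZ, all 10 iron genes passed, 6 higher and 4 lower in KO mice, beside 72.4% of all genes (35.6% higher, 36.8% lower). The directions were those at PEG for 9 genes, and Tfrc was lower in KO mice here (log2 fold change -0.97 ± 0.18, adjusted p = 8.9e-06). Of its transcripts the coding one was lower (-3.34 ± 0.53, adjusted p = 1.3e-06) and the retained-intron one did not pass (0.16 ± 0.16, adjusted p = 0.39). Hamp was 4.38 ± 0.45 higher and Hamp2 was lower (-2.18 ± 0.34). Hamp, Hamp2 and Ftl1 did not overlap between these groups, 3 of 10 beside 26.8% of all genes. Hmox1 was 0.78 ± 0.18 higher (adjusted p = 0.00023). The calls of Heph (0.74 ± 0.34, adjusted p = 0.048) and Cybrd1 (-0.85 ± 0.34, adjusted p = 0.025) were among the less secure. Cybrd1 lost its call without the WT/NTZ library WT_98 (adjusted p = 0.052), WT_99 (0.066) or WT_117 (0.12), Heph lost it in 14 of 20 refits that left out 1 library, and with the length index as a covariate Slc40a1 had a log2 fold change of -0.48 (adjusted p = 0.11). Fth1 (0.34, adjusted p = 0.014) had -0.0086 with that covariate (adjusted p = 0.96) and 0.15 without the KO libraries of low length index (adjusted p = 0.35), and Slc11a2 (0.48) had 0.19 with the transcript length offset (adjusted p = 0.13).

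The comparison KO/NTZ versus KO/PEG asks what blocking the gastrin receptor did in mice without acid. Tfrc was lower in KO/NTZ and Hamp and Cybrd1 were higher, 3 of 10 iron genes beside 5.56% of all genes (2.97% higher, 2.6% lower), and the ferritin genes, Slc40a1, Slc11a2, Heph, Hamp2 and Hmox1 did not pass. None of the 10 was without overlap between the groups (0.0403% of all genes were). The 2 KO groups share their genotype but not their share of animal numbers of 100 or above (7 of 13 and 1 of 11).

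Tfrc ran from 46.2 to 86.2 CPM in KO/NTZ (median 60.0), against 77.1 to 255 CPM in KO/PEG (median 117.9). Only the ends of the ranges met. Tfrc was lower in KO/NTZ (log2 fold change -1.07 ± 0.17, adjusted p = 5.1e-05), and KO/PEG had 2.11 times its level. In WT mice NTZ left a log2 fold change of -0.07 ± 0.18 (adjusted p = 0.96). The difference of the NTZ effects between the genotypes was -1.004 ± 0.24 (adjusted p = 0.027), and Tfrc was the 1 iron gene of 10 to pass this test, beside 0.96% of all genes (0.718% with a negative difference). This call was lost with limma-trend (adjusted p = 0.059), without the KO libraries of low length index (-1.03, adjusted p = 0.23) and without the WT/NTZ library WT_118 (adjusted p = 0.050). Both main transcripts were lower in KO/NTZ, the coding one with a log2 fold change of -1.95 ± 0.48 (adjusted p = 0.017) and the retained-intron one with -0.93 ± 0.14 (adjusted p = 0.00015). Among single transcripts 2.6% passed. For the retained-intron transcript the NTZ effects of the genotypes differed by -1.20 ± 0.21 (adjusted p = 0.00895), beside 0.333% of single transcripts, and for the coding one by -1.68 ± 0.67 (adjusted p = 0.41). Within animals numbered below 100 the log2 fold change of Tfrc was -1.12 (adjusted p = 0.014), and with the length index as a covariate it was -0.91 (adjusted p = 6.6e-05).

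Markers of several cell types also differed between the KO groups. The shares among all genes were 2.6% lower and 2.97% higher in KO/NTZ. Of the neuroendocrine markers 5 of 7 were lower in KO/NTZ and 1 higher. Chga, which encodes a protein of neuroendocrine granules, averaged 1524 ± 492 CPM in KO/PEG and 656 ± 97.7 CPM in KO/NTZ, while the summed neuroendocrine markers ran from 3214 to 8274 CPM in KO/PEG and from 4417 to 7626 CPM in KO/NTZ. Lower in KO/NTZ were also 5 of 5 tested red cell markers, 3 of 11 parietal cell markers and 1 of 11 macrophage markers, and higher were 2 of 5 muscle markers and 1 of 12 markers of dividing cells. The summed red cell markers were uneven in KO/PEG, at 941 ± 1374 CPM (SD) with a median of 297 and a highest value of 4116 CPM. Their median in KO/NTZ was 199 CPM. The part of all these cell types in the NTZ effects on the iron genes was not tested.

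Cybrd1 ran from 42.8 to 165 CPM in KO/NTZ (median 80.5). Most KO/NTZ libraries were above the highest KO/PEG library, at 59.4 CPM, and the groups overlapped at their ends. Cybrd1 was 1.28 ± 0.31 higher in KO/NTZ (adjusted p = 0.0098), or 2.43-fold, while its mean stayed under that of WT/NTZ (84.8 ± 37.2 against 153 ± 113 CPM). The medians were close, at 80.5 CPM in KO/NTZ and 90.9 CPM in WT/NTZ. WT/NTZ ran from 32.3 to 366 CPM and overlapped widely with KO/NTZ. Within animals numbered below 100 the difference was 1.13 (adjusted p = 0.068), and without the KO libraries of low length index it was 1.56 (adjusted p = 0.16). The difference of the NTZ effects between the genotypes was 1.40 ± 0.47 (adjusted p = 0.14) and did not pass.

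Hamp ran from 3.68 to 31.2 CPM in KO/NTZ (median 13.2), against 0.686 to 19.9 CPM in KO/PEG (median 6.66). The groups overlapped over much of their range. Hamp was 1.18 ± 0.32 higher in KO/NTZ (adjusted p = 0.022), or 2.26-fold. The call was lost without the KO/NTZ library KO_29 (1.06, adjusted p = 0.053) or KO_30 (1.004, adjusted p = 0.071), with the length index as a covariate (0.89, adjusted p = 0.076) and within animals numbered below 100 (1.72, adjusted p = 0.13). Hamp moved with the length index at r = -0.43. Hamp2 did not follow, at 9.79 to 57.7 CPM in KO/NTZ (median 33.9) and a log2 fold change of -0.46 ± 0.31 (adjusted p = 0.33).

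The other iron genes did not pass in this comparison. Fth1 had a log2 fold change of -0.07 ± 0.11 and Ftl1 of -0.10 ± 0.13, both with adjusted p-values of 0.63 or more. Hmox1 had -0.21 ± 0.16 (adjusted p = 0.40) and Slc40a1 -0.59 ± 0.25 (adjusted p = 0.15). Slc40a1 ran from 1.69 to 7.53 CPM in KO/NTZ, the lowest of the 4 groups by its median (3.21 CPM). 

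The genes most like Tfrc, Hamp and Cybrd1 were sought among 8972 genes with a mean of at least 10 CPM, as the Pearson correlation over the 44 libraries after removal of the group means. Tfrc was closest to Cnksr3 (r = 0.71), Prkd3 (r = 0.70) and Cdkn1b (r = 0.70), and these genes themselves moved with the length index at 0.65 to 0.80. Hamp was closest to Surf4 (r = 0.80), Npc2 (r = 0.79) and Sar1a (r = 0.77), with correlations to the index of -0.67 to -0.53. Cybrd1 was closest to Mxd1 (r = 0.75), Apol7a (r = 0.69) and Psapl1 (r = 0.68), which had weak correlations with the index, from -0.14 to 0.24. The correlations describe libraries that share their depth and composition.

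In WT mice, WT/NTZ versus WT/PEG, Hmox1 was the 1 iron gene of 10 that passed, beside 1.03% of all genes (1.03% higher). It ran from 3.48 to 19.7 CPM in WT/NTZ (median 9.28), against 4.27 to 8.83 CPM in WT/PEG. The groups overlapped, with the highest value in the WT/NTZ library WT_117. Hmox1 was 0.70 ± 0.19 higher in WT/NTZ (adjusted p = 0.048), and without WT_117 it was 0.54 (adjusted p = 0.26). The call was lost in 14 of 20 refits that left out 1 library and in 9 of 14 other settings. Squamous forestomach markers were also high in WT/NTZ, with a summed level of 0.465 to 3519 CPM against 0.640 to 457 CPM in WT/PEG, Krt13 reached 1731 CPM in WT_117, and Hmox1 varied with these markers at r = 0.50. Their part in the difference was not tested. The difference of the NTZ effects on Hmox1 between the genotypes was -0.91 ± 0.25 (adjusted p = 0.057).

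The wider iron pathway was followed in 5 lists of genes with known roles. In KO/PEG versus WT/PEG, of 21 tested genes of iron import and movement 9 were higher and 7 lower (median log2 fold change 0.09, against -0.0028 over all genes). Among all genes 37.5% were higher and 37.2% lower. Steap1, a metalloreductase, was 1.99 ± 0.16 higher, and Lcn2, which binds bacterial iron carriers, was 3.64 ± 0.59 higher. The KO/PEG level of Lcn2 had a median of 1.31 CPM, with 20.7 CPM in the library KO_46 and a mean of 1.68 CPM over the others. WT/PEG libraries held 0 to 0.422 CPM, and Lcn2 had enough counts to be tested only with KO_46 included. Without that library, with the genes of the full fit kept, the log2 fold change was 2.73 (adjusted p = 1.3e-06). Ncoa4, the receptor that sends ferritin to the lysosome, was lower (-1.32 ± 0.21), as was the iron importer Slc39a14 (-0.88 ± 0.09). Trf, the transferrin gene, had a log2 fold change of 0.0062 ± 0.19 (adjusted p = 0.98).

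Of 25 tested genes that control hepcidin, 5 were higher and 11 lower in KO/PEG (median -0.22), again beside 37.5% and 37.2% of all genes. Furin, a protease that cleaves prohepcidin among many other proteins, fell from 1691 ± 485 CPM in WT/PEG to 226 ± 153 CPM in KO/PEG (log2 fold change -2.90 ± 0.30, adjusted p = 4.5e-11). The receptors Acvr2a (-1.91 ± 0.23) and Neo1 (-1.31 ± 0.10) were lower too. Id1, a target of BMP signalling, was higher (80.6 ± 16.8 CPM against 240 ± 86.3 CPM, log2 fold change 1.57 ± 0.18). The ligand Bmp6 did not pass (-0.55 ± 0.29, adjusted p = 0.085), and Smad7, an inhibitor of the BMP pathway, was lower (-0.75 ± 0.11). The activity of BMP signalling was not measured, and these mRNA levels do not give its direction.

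Of 11 genes of iron and oxygen sensing, 2 were higher and 7 lower in KO/PEG (median -0.37). For this list and the heme and iron-sulfur lists below, the shares among all genes were 37.5% higher and 37.2% lower. Egln3, a prolyl hydroxylase, was 0.70 ± 0.14 higher, whereas Egln1, another prolyl hydroxylase (-0.57 ± 0.07), and Arnt, the partner of the hypoxia-inducible factors (-0.57 ± 0.11), were lower. Ireb2, which encodes iron regulatory protein 2, was also lower (-0.80 ± 0.17, adjusted p = 4.8e-05). Of 18 genes of heme synthesis and breakdown 6 were higher and 4 lower (median 0.10). Blvrb, a biliverdin reductase, was 1.53 ± 0.13 higher and Alas1, the first enzyme of heme synthesis, 0.81 ± 0.09 higher, while Cpox (-1.37 ± 0.10) and Fech (-0.57 ± 0.07), later enzymes of the same path, were lower. Of 21 genes of iron-sulfur cluster assembly 12 were higher and 4 lower (median 0.35). Fdx1l (1.42 ± 0.19), Fdx1 (1.40 ± 0.19), Glrx5 (1.38 ± 0.19) and Nfu1 (0.73 ± 0.09) were among the higher ones.

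With NTZ in both genotypes the counts of higher and lower genes in KO mice were 5 and 7 for import and movement, 6 and 12 for hepcidin control, 1 and 7 for sensing, 7 and 4 for heme, and 12 and 4 for iron-sulfur assembly, beside 35.6% higher and 36.8% lower among all genes. Beyond the genes already named, Flvcr1, a heme exporter (-1.50 ± 0.22), and Ireb2 (-1.01 ± 0.18) had some of the smallest p-values.

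**Figure D5:**
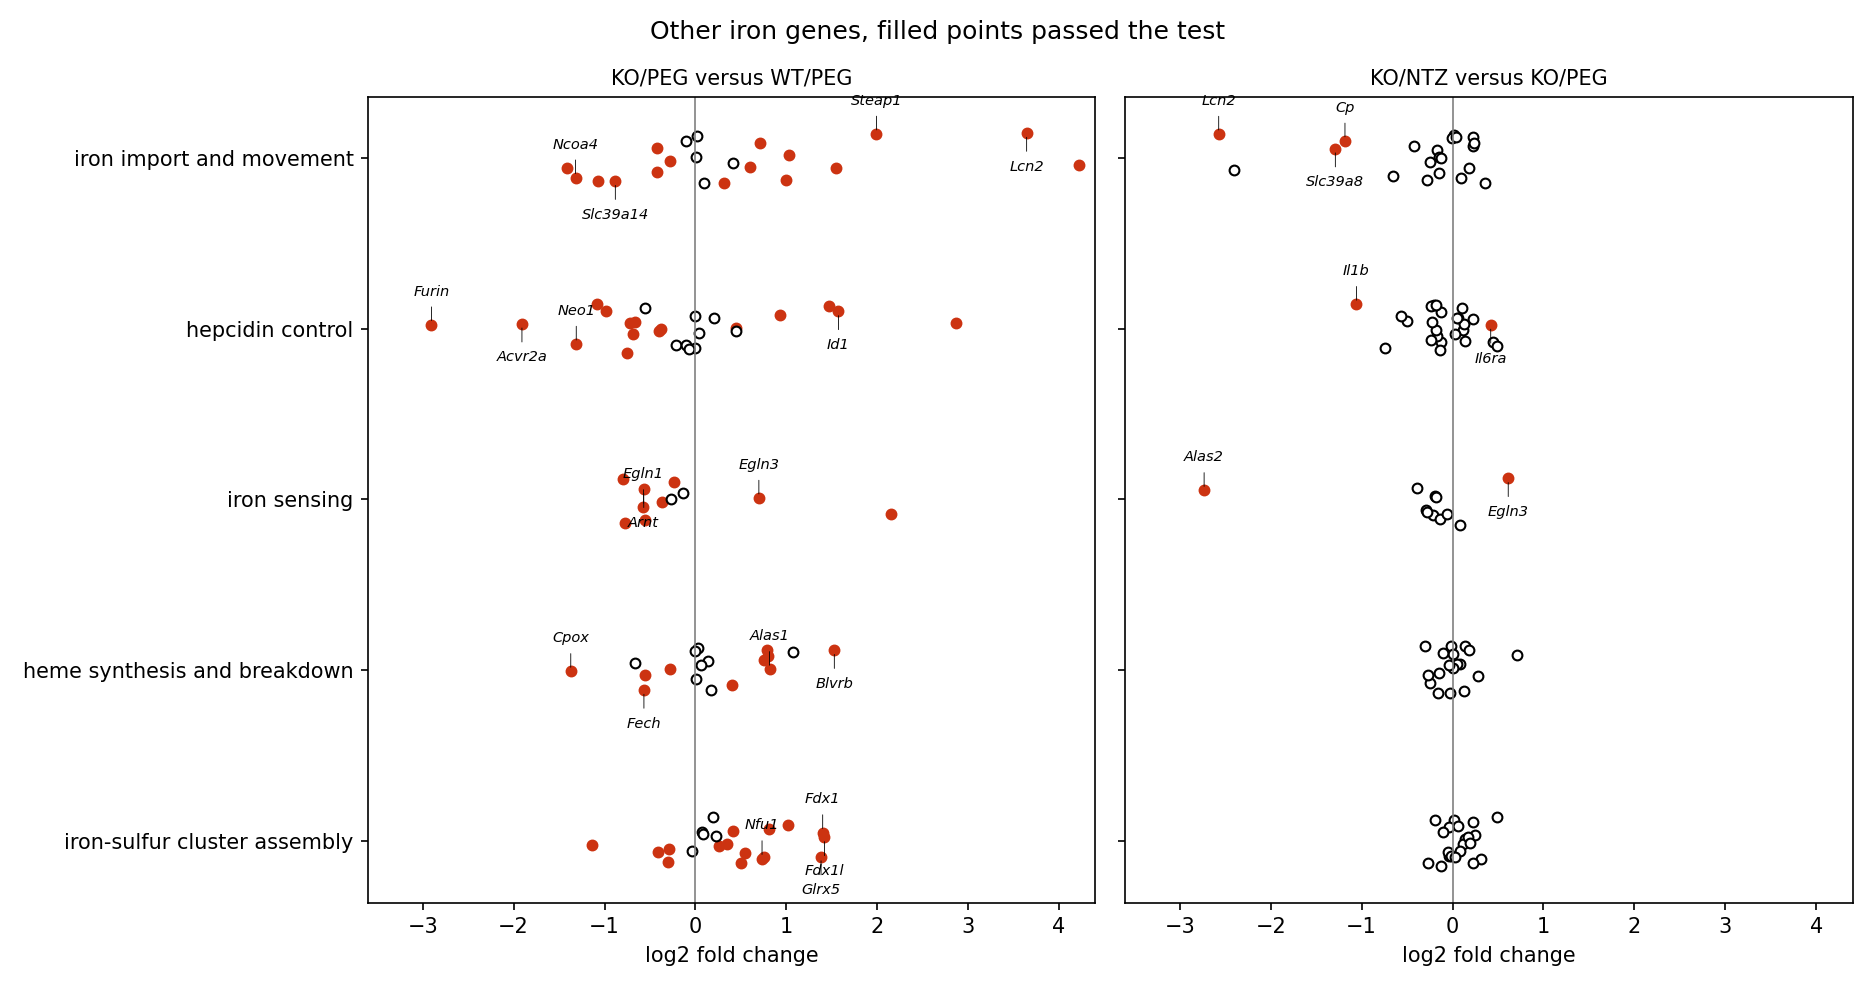
Log2 fold changes of the other iron genes by list, for KO/PEG versus WT/PEG and KO/NTZ versus KO/PEG, with 1 point for each gene, filled where the adjusted p was below 0.05, and names for genes given in the text. In the first comparison most points are filled and lie on both sides of 0, and in the second 7 are filled.

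Few of these genes passed between KO/NTZ and KO/PEG by edgeR. For import and movement 3 of 21 were lower and none higher, for hepcidin control 1 of 25 was higher and 1 lower, and for sensing 1 of 11 was higher and 1 lower, beside 2.97% higher and 2.6% lower among all genes. In the same order of lists, 9, 9 and 4 genes had an unadjusted p below 0.05 by edgeR. DESeq2 called 5, 3 and 2 genes, and limma-trend 4, 2 and 1. No gene of the heme or iron-sulfur lists passed by edgeR, where 1 of 18 and 3 of 21 had an unadjusted p below 0.05, DESeq2 called 1 and 0, and limma-trend called 0 and 0. Lcn2 was lower in KO/NTZ (-2.57 ± 0.54, 3.14 ± 5.53 CPM in KO/PEG and 0.541 ± 0.342 CPM in KO/NTZ), and without KO_46 the log2 fold change was -1.66 (adjusted p = 0.012). Also lower were Cp, the ferroxidase ceruloplasmin (-1.18 ± 0.23), the metal importer Slc39a8 (-1.29 ± 0.27), and Il1b, an inflammatory cytokine (-1.06 ± 0.32, adjusted p = 0.037). Egln3 (0.61 ± 0.14) and Il6ra, the interleukin 6 receptor (0.42 ± 0.12, adjusted p = 0.027), were higher. Il1b and Il6ra lost their calls in 6 of 13 and 7 of 14 other settings, and Il1b in 11 of 24 refits that left out 1 library. Alas2, placed in the sensing list, is the heme synthesis gene of red cell precursors and was lower (-2.73 ± 0.60, adjusted p = 0.0034), but after removal of the 2 KO/PEG libraries highest in Hbb-bs its log2 fold change was -0.68 (adjusted p = 0.26). By edgeR Cp was the 1 list gene whose NTZ effect differed between the genotypes (-1.42 ± 0.33, adjusted p = 0.025), while 7 of the 21 import genes had an unadjusted p below 0.05, DESeq2 called 2 of them and limma-trend 1. In WT mice no gene of the 5 lists passed by edgeR, DESeq2 or limma-trend, and 3 of them had an unadjusted p below 0.05 in edgeR.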

How the data were processed

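RNA from gastric corpus samples was made into TruSeq stranded mRNA libraries and read for single 75-cycle reads on a pair of NextSeq flow cells; the flow cell of each library is not given in the sources used here. The authors ran bcl2fastq and kallisto 0.42.4 (GRCm38 transcripts) and deposited estimated counts per transcript, 1 column for each of 44 libraries, not normalized. The strand setting of kallisto and the transcript release are not given in the sources used here. The authors tested with sleuth, which was not run here.

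Of 94080 transcripts, 92372 were paired with a GENCODE vM21 gene name and summed per gene, and the 1708 others (0.329% to 1.3% of the counts) stayed out. Estimated counts were rounded to whole numbers and tested with edgeR 4.0.16 (R 4.3.3): TMM, filterByExpr (minimum count 10, minimum total 15), 1 quasi-likelihood fit of all 44 libraries with a mean for each group, Benjamini-Hochberg over 14901 genes (30328 transcripts in the transcript fit), threshold 0.05. Ratios within a library were compared with 2-sided permutation tests in scipy 1.17.1. Floors of 3 counts cover counting error only. The text names all 10 iron genes, up to 4 called genes with the smallest p of each list and comparison, the leading markers and the most similar genes; Trf, Bmp6, Smad7 and, in KO/PEG versus WT/PEG, Ireb2 were named after their values were seen. Some genes that this rule selects are not reported here. Of the marker and list symbols, Tf was matched as Trf and Cblif was not matched. The iron genes and lists were chosen with earlier results of these data known. The fits were tested on simulated data.

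Alternatives were DESeq2 1.42.0, limma-trend (limma 3.58.1), RLE scaling, other filters, fits of only the groups compared, libraries with a repeated number summed or left out, subsets by animal number, a transcript length offset, and single transcripts. The length index as a covariate, leaving out libraries by that index or by Hbb-bs, each library left out in turn (for Lcn2 without KO_46, the genes of the full fit were kept), the comparison of KO/PEG libraries by number, and the tests of ratios were chosen after seeing the data. KO/PEG has more libraries than the mice the study describes for that group, so some libraries may share an animal, and p-values measure the spread between libraries. Figures were drawn with matplotlib 3.10.9.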

Additional observations from a re-analysis of the deposited data

Results flagged for a closer look

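Heph stood at 2.50 CPM in the WT/NTZ library WT_117, far from the other 8 libraries of that group, of which the next reached 1.14 CPM. The lowest and the highest library of the 9 in WT/NTZ were examined for each of the 10 iron genes, and 1 of the 20 values was this far out. Chance alone gives such a value, at either end, in about 1 in 20 groups. Here 10 groups were examined, all from the same 9 libraries. The same library had the highest Cybrd1 and Hmox1 values of its group.

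The effect of NTZ on Tfrc differed between KO and WT mice, by -1.004 on the log2 scale. The effect of NTZ on Cp differed likewise, by -1.42, with 9.90 ± 4.88 CPM in KO/PEG and 4.31 ± 1.68 CPM in KO/NTZ (SD, n = 13 and 11).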

How the results depend on the processing

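No paired analysis was possible because the groups compared share fewer than 2 replicate numbers. Of the 10 iron genes, 9 passed for KO/PEG versus WT/PEG, with 8 or 9 when 1 library was left out, and 3 for KO/NTZ versus KO/PEG (2 or 3 without 1 library), but 1 in animals numbered below 100 and 1 without the KO libraries of low length index. Over all genes that comparison went from calls in 5.56% of 14901 genes to 101 of 14480 and 73 of 15265 in these subsets. WT/NTZ versus WT/PEG gave 0 in place of 1 with single transcripts, limma-trend, a 10 CPM filter (7 genes fitted), only the groups compared (8 genes fitted), the libraries of a shared number summed or left out, the length offset, and both sets of KO libraries left out, and 0 to 1 without 1 library. The difference of the NTZ effects gave 2 genes with DESeq2, with the index as a covariate and without the Hbb-bs libraries, 0 with limma-trend and without the low-index libraries, and 0 to 2 without 1 library. Tfrc in KO/NTZ versus KO/PEG passed in all 14 settings. The causes were not tested.

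Signs turned in values that had not passed, except Tfrc in KO/NTZ versus WT/NTZ (0.16, transcript with the largest count, annotated as a retained intron) and Fth1 there (-0.0086, covariate). For KO/PEG versus WT/PEG, Tfrc was -0.0072 (limma-trend), -0.0085 (100 or above), -0.11 (Hbb-bs libraries out) and -0.081 to 0.12 without 1 library. For KO/NTZ versus KO/PEG, animals below 100 gave Hamp2 0.067 and Fth1 0.12, and leaving out low-index libraries gave Fth1 0.029, Ftl1 0.089 and Slc11a2 -0.13. Slc11a2 was also -0.0097 (DESeq2), -0.013 (limma-trend), -0.0065 (no filter), -0.010 (10 CPM), -0.086 (covariate), -0.0038 (Hbb-bs) and -0.065 to 0.042 without 1 library, and Heph was 0.019 (transcript) and 0.024 (covariate). For WT/NTZ versus WT/PEG, Tfrc was 0.27 (transcript) and -0.16 to 0.013 without 1 library, and animals of 100 or above gave Slc11a2 0.026 and Cybrd1 0.091. Cybrd1 ran from -0.39 to 0.11 and Heph from -0.32 to 0.20 without 1 library, and Heph was -0.052 (limma-trend) and -0.038 (covariate). For the difference of NTZ effects, the covariate gave Hamp -0.061, Slc11a2 -0.069 and Heph 0.063, leaving out low-index libraries gave Hamp2 0.041 and Slc11a2 -0.10, and without 1 library Slc11a2 ran from -0.018 to 0.089 and Heph from -0.40 to 0.12.

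KO/PEG libraries numbered below 100 and those of 100 or above differed in none of 14182 genes by edgeR, where 1770 had an unadjusted p below 0.05. Depth limits Hamp and Heph in WT libraries most.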
